A study of Rattus norvegicus with 24 samples.

Results

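The 7 subunits of respiratory complex I that rats encode on mitochondrial DNA, Mt-nd1, Mt-nd2, Mt-nd3, Mt-nd4l, Mt-nd4, Mt-nd5 and Mt-nd6, were followed in heart RNA. They were chosen by gene identity and not by a rule on measured values, though with earlier results of these data known. Their rows are ENSRNOG00000030644 (Mt-nd1), ENSRNOG00000031033 (Mt-nd2), ENSRNOG00000033615 (Mt-nd3), ENSRNOG00000031053 (Mt-nd4l), ENSRNOG00000029707 (Mt-nd4), ENSRNOG00000029971 (Mt-nd5) and ENSRNOG00000029042 (Mt-nd6). These are 7 of the 32883 rows in each of 2 expression tables, 1 per ventricle. All 7 were present in both tables and all 7 passed the filter on low values in both. The files give Ensembl numbers without names, so the names are those of the gene list and were not checked against an annotation.

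The series compares rats labelled DAAO with rats labelled CTL, all of the strain given as WI, under a title that speaks of chemogenetic heart failure. DAAO is D-amino acid oxidase, an enzyme that turns D-amino acids into keto acids and releases hydrogen peroxide. There were 6 DAAO and 6 CTL samples of left ventricle with septum, and 6 DAAO and 6 CTL samples of right ventricle, 24 libraries in all. The animal number in each label occurs once per ventricle and was taken to mark 12 animals, although no label states that the numbers are separate rats; p-values speak only of the spread among these libraries. The labels do not say how the enzyme reached the heart, which cells made it, which substrate was given, or the sex, age, dose or time, and they do not say what the CTL animals received. Every DAAO number is higher than every CTL number, so a difference in when the animals were handled and the difference in group cannot be told apart.

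Complex I takes electrons from NADH, passes them to ubiquinone and pumps protons across the inner mitochondrial membrane, and the heart, dense in mitochondria, relies on it for much of its ATP. The mitochondrial genome supplies the core of its membrane arm, while the other subunits come from the nucleus. Mitochondrial genes are read as long polycistronic RNAs from each strand and are then cut at the tRNAs that lie between them; 6 of the complex I genes are read from the heavy-strand promoter, and Mt-nd6 lies on the other strand and is read from the light-strand promoter. Mt-nd4l and Mt-nd4 stay together on 1 bicistronic RNA.

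Values are the authors' normalized counts, reads per gene divided by 1 size factor per library, computed separately for each ventricle. Whole reads could be recovered from them, and libraries held 15705469 to 19509174 reads in DAAO and 15363539 to 23263897 reads in CTL left ventricles, and 13280705 to 18777633 reads in DAAO and 14419449 to 16679620 reads in CTL right ventricles. The sparsest of the 7 transcripts in any library, Mt-nd4, rested on 18009 reads, a counting error of 0.745%. Spread between animals was far above this, with a coefficient of variation within a group of 8.64% to 27.7% for the normalized counts. Counting error was thus small beside the spread between animals.

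The 7 transcripts were among the most abundant of the heart. By mean normalized count, which is not corrected for transcript length, they ranked between 6 (Mt-nd2) and 49 (Mt-nd4) of 14041 genes tested in the left ventricle, and between 6 (Mt-nd1) and 41 (Mt-nd4) of 13489 in the right ventricle. Together they held 3.80% to 5.79% of all reads in the DAAO and 4.34% to 6.16% in the CTL left ventricles. The right ventricular range was 3.92% to 5.57% in DAAO and 4.50% to 6.10% in CTL libraries. Whether counting used strand is not given in the sources used here, so Mt-nd6 reads and reads from the opposite strand of the same stretch cannot be told apart, and neither can reads in the overlap of Mt-nd4l and Mt-nd4. Nuclear copies of mitochondrial sequence may also share reads with all 7, which makes the absolute levels uncertain.

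In the left ventricle all 7 transcripts had a lower mean in DAAO than in CTL hearts, and 2 of them, Mt-nd4l and Mt-nd4, fell past the threshold of the test. The test was limma on log2(value + 1) with Benjamini-Hochberg adjustment over all genes and a threshold of 0.05. Over all genes tested, 20.0% were called lower in DAAO left ventricles, so 2 of 7 is a share near the background. The median log2 fold change of the 7 was -0.38, against 0.01 over all genes tested, and 18.0% of all genes lay at or below that median. In bulk tissue, fewer cardiomyocytes or mitochondria in a sample and less of a transcript in each of them cannot be told apart.

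Mt-nd4, a proton-pumping subunit of the membrane arm that resembles bacterial antiporters, had normalized counts of 15217 at the lowest, 20006 at the median and 27350 at the highest in DAAO left ventricles, against 21038, 28317 and 37429 in CTL left ventricles. In 4 of the 6 DAAO libraries the value was below every CTL library, and DAAO animal D_7137 was the highest of its group. The log2 fold change was -0.47 (SE 0.15, adjusted p = 0.0290 by limma). Mt-nd4l, the small hydrophobic subunit that shares its RNA with Mt-nd4, had 28935, 36016 and 50334 in DAAO against 39156, 51257 and 67376 in CTL left ventricles. Again 4 of 6 DAAO libraries lay below all CTL libraries, and D_7137 was the highest of the DAAO hearts. Its log2 fold change was -0.46 (SE 0.16, adjusted p = 0.0342 by limma).

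The calls on this pair were fragile. Without CTL animal C_7118 or C_7121, or without DAAO animal D_7138, D_7143 or D_7146, neither passed, Mt-nd4l alone was lost without CTL animal C_7120 or DAAO animal D_7135, and Mt-nd4 alone without CTL animal C_7123, with adjusted p over the 12 omissions from 0.0103 to 0.0789 for Mt-nd4l and from 0.00733 to 0.0665 for Mt-nd4. Neither passed when genes with low values were also tested (adjusted p = 0.0735 for Mt-nd4l and 0.0520 for Mt-nd4).

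The other 5 left ventricular transcripts did not pass. Mt-nd5, another antiporter-like pump subunit at the far end of the membrane arm, had 98090, 119896 and 159015 normalized counts at the lowest, median and highest in DAAO against 122824, 171051 and 213153 in CTL hearts. DAAO libraries lay below all CTL libraries in 3 of 6 animals, and the log2 fold change was -0.44 (SE 0.19, adjusted p = 0.0849 by limma). Mt-nd6, the light-strand transcript for a subunit of the membrane arm, had 30020, 38914.5 and 50317 in DAAO against 38359, 51900 and 63184 in CTL left ventricles. It too had 3 of 6 DAAO libraries below every CTL library, with a log2 fold change of -0.37 (SE 0.17, adjusted p = 0.0937 by limma).

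Mt-nd3, whose long loop at the ubiquinone site is exposed when the enzyme is in its inactive form, varied most between left ventricles. Its normalized counts were 46791, 64748 and 96264 in DAAO against 62567, 82395 and 117541 in CTL hearts, a log2 fold change of -0.38 (SE 0.21, adjusted p = 0.167 by limma). CTL animals C_7000 and C_7005 lay close together at the bottom of their group. Both were within the DAAO range, and so were C_7120 and C_7123. Mt-nd1, which forms part of the ubiquinone channel, had 169421, 198653 and 287662 normalized counts in DAAO against 202180, 265959 and 362416 in CTL left ventricles. Although 4 of 6 DAAO libraries lay below all CTL libraries, D_7137 and D_7142 were inside the CTL range, and the log2 fold change of -0.32 had a 95% interval of -0.77 to 0.14 (adjusted p = 0.257 by limma). Mt-nd2, also an antiporter-like pump subunit, had 193859, 257127 and 383962 in DAAO against 245637, 329780 and 431875 in CTL left ventricles. The groups overlapped more, with 2 of 6 DAAO libraries below all CTL libraries, and its log2 fold change of -0.29 had a 95% interval of -0.78 to 0.20 (adjusted p = 0.339 by limma).

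CTL animals C_7000 and C_7005, whose numbers lie far from those of the other animals, were the lowest pair of CTL libraries for 5 of the 7 transcripts in each ventricle. Without both of them, 5 transcripts were called lower in DAAO left ventricles, namely Mt-nd3, Mt-nd4l, Mt-nd4, Mt-nd5 and Mt-nd6, with log2 fold changes between -0.60 and -0.53. In that fit 23.5% of all genes tested were called lower. Where these animals were the lowest of the CTL libraries, omitting them raised the CTL mean by construction. The same omission in the right ventricle left the 2 calls described next, with 14.8% of all genes called lower.

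**Figure D1:**
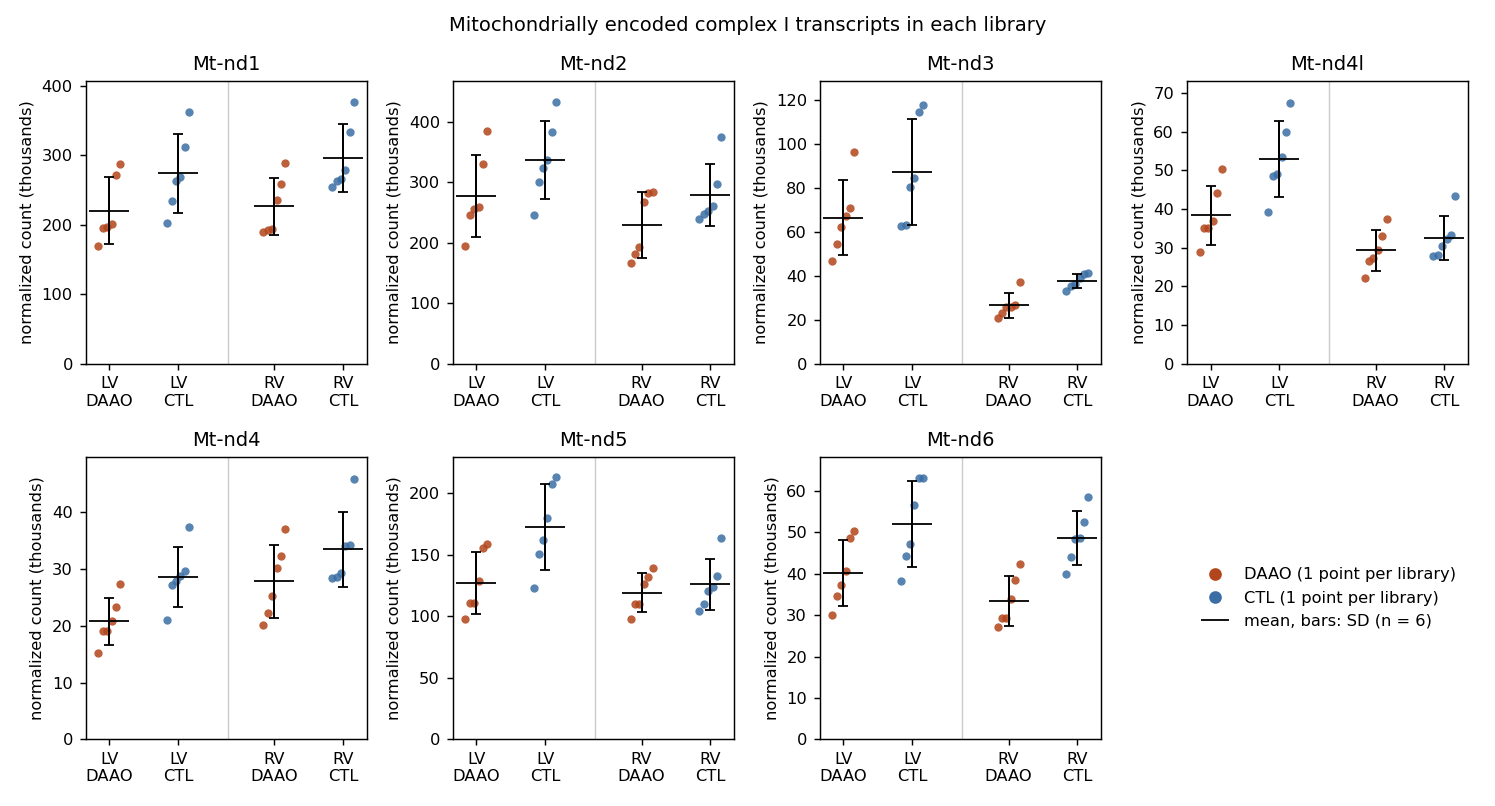
Normalized counts (linear axes from 0) of the 7 transcripts in DAAO (red) and CTL (blue) libraries of the left (LV) and right (RV) ventricle; each point is 1 library, and the horizontal bar and whiskers are the mean and SD (n = 6). The groups overlap in every panel, and the closest to a separation are Mt-nd3 and Mt-nd6 in the right ventricle, where 5 of 6 DAAO libraries lie below every CTL library.

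In the right ventricle all 7 transcripts again had a lower mean in DAAO hearts, and the 2 that passed the threshold were others, Mt-nd3 and Mt-nd6. Here 14.0% of all genes tested were called lower in DAAO, and 2 of 7 again lies near that background. The median log2 fold change of the 7 was -0.30, against 0.02 over all genes, and 24.7% of all genes lay at or below it. None of the 7 transcripts separated the groups completely in either ventricle, while 8.28% of all genes tested in the left and 5.50% in the right ventricle had every DAAO library below every CTL library.

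Mt-nd6 had 27041, 31647 and 42244 normalized counts at the lowest, median and highest in DAAO right ventricles, against 39898, 48532 and 58437 in CTL right ventricles. DAAO animal D_7142 was the only one of 6 above any CTL library, and it exceeded CTL animal C_7005 alone. The log2 fold change was -0.55 (SE 0.15, adjusted p = 0.0172 by limma). Mt-nd3 had 20900, 25738 and 37148 in DAAO against 33098, 37747 and 41138 in CTL right ventricles. Again 5 of 6 DAAO libraries lay below all CTL libraries, the exception being DAAO animal D_7137. Its log2 fold change was -0.52 (SE 0.15, adjusted p = 0.0178 by limma).

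Both calls were kept when any 1 of the 12 animals was left out, with adjusted p from 0.0107 to 0.0462 for Mt-nd6 and from 0.00229 to 0.0454 for Mt-nd3. In those fits 10.5% to 16.7% of all genes tested were called lower. Both calls were lost when genes with low values were tested too (adjusted p = 0.0822 for Mt-nd6 and 0.0720 for Mt-nd3).

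The pump subunits and the remaining transcripts of the right ventricle did not pass. Mt-nd5 had 97952, 118339 and 139502 normalized counts in DAAO against 104127, 122601 and 163673 in CTL right ventricles, and a log2 fold change of -0.07 (SE 0.19, adjusted p = 0.797 by limma). The groups lay over each other, and 1 of 6 DAAO libraries was below all CTL libraries. Mt-nd4l had 22242, 28346 and 37429 in DAAO against 27876, 31393 and 43298 in CTL right ventricles, and a log2 fold change of -0.15 (SE 0.16, adjusted p = 0.490 by limma). Mt-nd4 had 20079, 27695 and 36964 in DAAO against 28416, 31685 and 45865 in CTL right ventricles, and a log2 fold change of -0.28 (SE 0.18, adjusted p = 0.260 by limma). For both, 3 of 6 DAAO libraries lay below all CTL libraries, and D_7138 was the highest of the DAAO hearts. Mt-nd2 had 167259, 230747 and 283137 in DAAO against 239594, 257140 and 375571 in CTL right ventricles. Its DAAO libraries were split, with 3 below all CTL libraries and 3 inside the CTL range, and its log2 fold change was -0.30 (SE 0.25, adjusted p = 0.386 by limma). Mt-nd1 had 189016, 214730 and 288939 normalized counts in DAAO against 254416, 272418 and 376984 in CTL right ventricles, with 4 of 6 DAAO libraries below all CTL libraries and a log2 fold change of -0.39 (SE 0.23, adjusted p = 0.231 by limma). DESeq2 on the recovered reads called it lower (adjusted p = 0.0293), and with that tool 15.9% of all genes were called lower.

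The size of these differences depended on the scaling. With every library set to the same total of reads, the median of all genes moved up by 0.20 in the left and 0.24 in the right ventricle on the log2 scale. The calls over all genes then became 4325 higher and 1631 lower in DAAO left ventricles, against 2430 higher and 2805 lower with the deposited scaling, and 3802 higher and 933 lower in the right ventricle, against 1684 and 1890. A change of scaling moves nearly all genes alike, so it leaves the place of a transcript relative to the median gene as it was by construction. Mt-nd6 in the right ventricle stood at -0.57 and Mt-nd4 in the left ventricle at -0.48 relative to that gene.

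Against 0, equal totals left 1 call in each ventricle, where 11.6% of all genes were called lower in the left and 6.92% in the right ventricle. Mt-nd4l in the left ventricle had a log2 fold change of -0.26 (limma adjusted p = 0.0496), and Mt-nd6 in the right ventricle one of -0.30 (limma adjusted p = 0.0492). Mt-nd4 in the left ventricle (adjusted p = 0.0575) and Mt-nd3 in the right ventricle (adjusted p = 0.0836) were lost. Right ventricular Mt-nd4l and Mt-nd5 turned to 0.09 and 0.17, neither past the threshold. With totals taken over the reads outside the 7 transcripts no call was left in either ventricle, the nearest being Mt-nd6 in the right ventricle at an adjusted p of 0.0503.

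**Figure D2:**
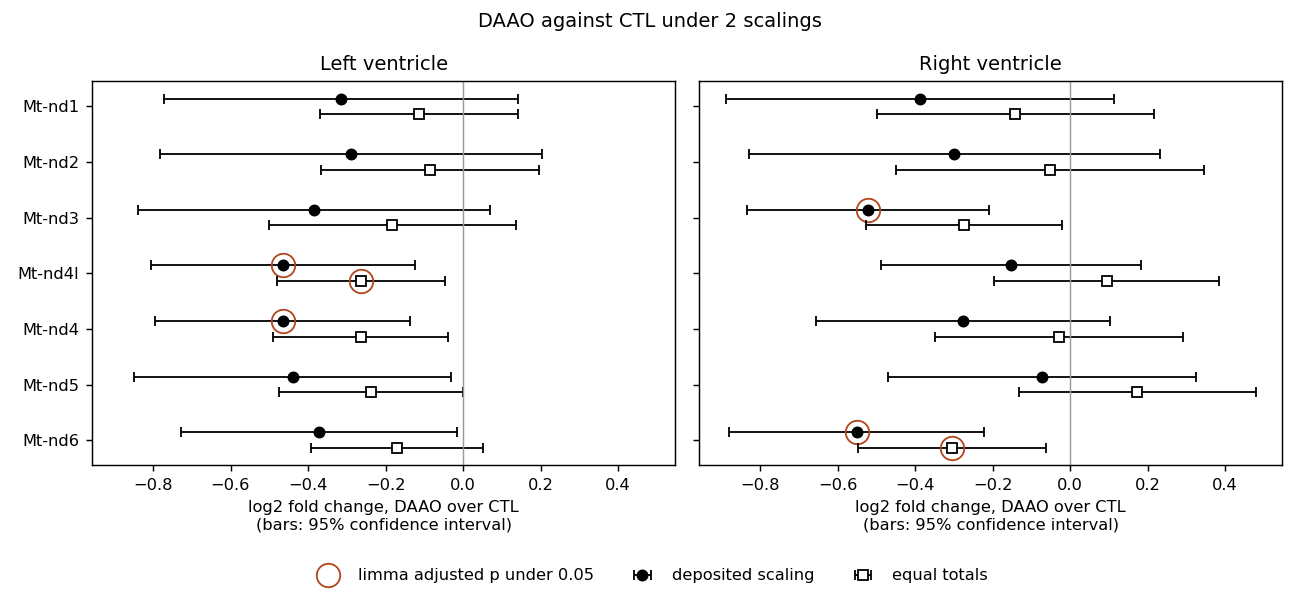
Log2 fold change, DAAO over CTL, of each transcript with its 95% confidence interval (limma, n = 6 each), with the deposited scaling (filled circles) and with equal library totals (open squares); red rings mark an adjusted p under 0.05. With the deposited scaling all 14 values lie below 0; with equal totals all are nearer to 0 or above it, and right ventricular Mt-nd4l and Mt-nd5 change sign.

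The share of a library's reads is free of the size factors, and it was compared with exact permutation tests, two-sided, over all ways to split 12 libraries into 6 and 6, adjusted over 8 tests. The 7 transcripts together held 4.70% ± 0.68 of reads in DAAO and 5.19% ± 0.64 in CTL left ventricles (SD, n = 6 each, exact permutation p = 0.210, adjusted p = 0.350). Right ventricles held 4.75% ± 0.59 in DAAO and 4.95% ± 0.60 in CTL libraries (exact permutation p = 0.593, adjusted p = 0.686). The 6 heavy-strand transcripts alone held 4.46% ± 0.65 in DAAO against 4.92% ± 0.62 in CTL left ventricles, and 4.52% ± 0.57 in DAAO against 4.67% ± 0.58 in CTL right ventricles, with an adjusted exact permutation p of 0.350 and 0.686. The 95% Wilson intervals of a single library's summed share were at most 0.0120 percentage points wide on either side and cover counting error only.

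Mt-nd6, read apart as the light-strand gene, was lower in DAAO than in CTL right ventricles and was not called in left ventricles. In the right ventricle it held 0.201%, 0.224%, 0.209%, 0.236%, 0.243% and 0.261% of reads in DAAO animals D_7146, D_7135, D_7143, D_7137, D_7138 and D_7142, against 0.243% at the lowest, 0.284% at the median and 0.323% at the highest in CTL libraries. Only DAAO animal D_7142 was clearly inside the CTL range; animal D_7138 lay level with the lowest CTL library, C_7005. The means were 0.229% ± 0.022 in DAAO and 0.283% ± 0.028 in CTL right ventricles (SD, n = 6 each), a log2 difference of -0.30, with an exact permutation p of 0.00433 and an adjusted p of 0.0173. In the left ventricle Mt-nd6 held 0.239% ± 0.029 in DAAO and 0.269% ± 0.034 in CTL libraries (exact permutation p = 0.130, adjusted p = 0.346), and 2 of 6 DAAO libraries lay below all CTL libraries.

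The ratio of Mt-nd6 reads to the reads of the 6 heavy-strand transcripts gave the same picture without any library total. Right ventricular values were 0.0456 at the lowest, 0.0518 at the median and 0.0562 at the highest in DAAO hearts, against 0.0559, 0.0598 and 0.0679 in CTL hearts. Of the 6 DAAO libraries 5 were below every CTL library, and animal D_7143 lay just above CTL animal C_7118. The mean log2 ratio was -4.30 ± 0.11 in DAAO and -4.04 ± 0.12 in CTL right ventricles, a difference of -0.26 (exact permutation p = 0.00433, adjusted p = 0.0173). Both Mt-nd6 measures of the right ventricle passed without any 1 animal (adjusted p from 0.0173 to 0.0433).

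The same ratio in left ventricles was 0.0501 to 0.0584 in DAAO hearts and 0.0507 to 0.0613 in CTL hearts, and the groups lay over each other. The mean log2 ratio was -4.22 ± 0.08 in DAAO and -4.19 ± 0.10 in CTL libraries, a difference of -0.03 (exact permutation p = 0.634, adjusted p = 0.686).

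**Figure D3:**
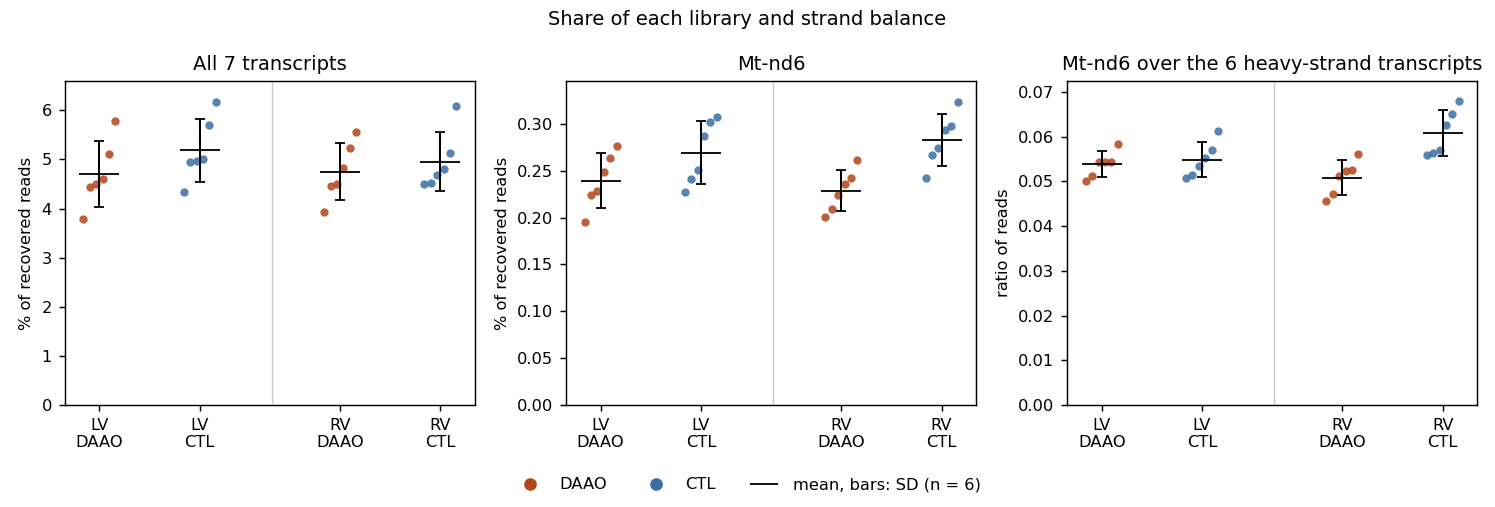
Share of recovered reads held by the 7 transcripts together (left panel, %), by Mt-nd6 (middle panel, %), and the ratio of Mt-nd6 reads to reads of the 6 heavy-strand transcripts (right panel), in DAAO (red) and CTL (blue) libraries of the left (LV) and right (RV) ventricle; points are libraries, bars the mean and SD (n = 6). The summed share overlaps in both ventricles, whereas right ventricular DAAO libraries average 0.229% Mt-nd6 against 0.283% in CTL libraries.

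Whether the difference between DAAO and CTL hearts itself differed between the ventricles was tested directly. For single transcripts, 1 limma fit over all 24 libraries was used, without a term for the animal. It called 0 of the 7, where 2.93% of 13344 genes were called in either direction. At an unadjusted p under 0.05 it also found 0 of the 7, where 2342 of the 13344 genes were found. At that share, 0 of only 7 says little. The left minus the right log2 fold change ran from -0.37 for Mt-nd5 (95% interval -0.86 to 0.13) to 0.18 for Mt-nd6 (-0.27 to 0.63), with adjusted p from 0.460 to 0.993. A fit with the animal as a replicate block also called 0 of the 7, where 1072 of 13344 genes were called. A call for Mt-nd6 or Mt-nd3 in 1 ventricle and for Mt-nd4 or Mt-nd4l in the other is therefore not shown to differ between them.

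For the strand ratio, the left minus the right log2 ratio was taken in each animal. It averaged 0.08 ± 0.11 in DAAO animals and -0.15 ± 0.14 in CTL animals (SD, n = 6 each), a difference of 0.23 with an exact permutation p of 0.0108 and an adjusted p of 0.0433 over 4 such tests. The left ventricle had the lower ratio in most CTL animals, and 4 of 6 DAAO animals lay above all CTL animals. The call was lost in 9 of 12 cases when 1 animal was left out, being kept only without CTL animal C_7118 or DAAO animal D_7137 or D_7143, with adjusted p from 0.0346 to 0.104 and a difference from 0.19 to 0.27. The same comparison for the summed share gave an exact permutation p of 0.344, and for the Mt-nd6 share 0.119.

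The mix of the 7 transcripts was compared as each one's share of the reads of the 7. The coefficient of variation of that share within a group was 2.09% to 21.5%, and the highest in each group was that of Mt-nd3. These comparisons were added after the data had been seen, as 14 exact permutation tests adjusted together. In the right ventricle Mt-nd5 made up 17.4% ± 1.1 of the reads of the 7 in DAAO and 14.8% ± 0.8 in CTL hearts (SD, n = 6 each, exact permutation adjusted p = 0.0303). DAAO libraries lay at 16.0% to 18.8% and CTL libraries at 13.7% to 16.1%, and 5 of 6 DAAO libraries were above every CTL library. The shares of the 7 have a fixed sum, so a larger share need not be a rise. The log2 fold change of Mt-nd5 there was -0.07 with the deposited scaling and 0.17 with equal totals, neither past the threshold. Mt-nd6 made up 4.84% ± 0.35 in DAAO and 5.73% ± 0.45 in CTL right ventricles (exact permutation adjusted p = 0.0303). In 5 of 6 DAAO libraries its share lay below all CTL libraries. This Mt-nd6 share is the ratio of Mt-nd6 to heavy-strand reads given above on another scale. Its call is therefore the same result again and not a further one.

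In the left ventricle Mt-nd4l made up 4.87% ± 0.13 in DAAO and 5.29% ± 0.24 in CTL hearts (exact permutation adjusted p = 0.0303), with 4 of 6 DAAO libraries below all CTL libraries. The other 11 tests did not pass, the nearest being right ventricular Mt-nd1 at 32.7% ± 1.5 in DAAO and 34.6% ± 1.3 in CTL libraries (exact permutation adjusted p = 0.106). All 3 calls were lost without CTL animals C_7000 and C_7005 (adjusted p = 0.0667 each), and leaving out 1 DAAO animal also ended them: D_7138 or D_7146 for each of the 3, D_7137 for Mt-nd4l and Mt-nd6, and D_7142 for Mt-nd4l, with adjusted p up to 0.0606.

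Mt-nd5 and Mt-nd6 lie next to each other on opposite strands. The ratio of Mt-nd6 to Mt-nd5 reads, picked after its values were seen and so given without a test, was 0.246 to 0.304 in DAAO and 0.357 to 0.402 in CTL right ventricles. In the left ventricle it was 0.306 to 0.335 in DAAO and 0.291 to 0.314 in CTL hearts. The right ventricular groups did not overlap, while in the left ventricle the DAAO values were slightly the higher and did overlap. Mt-nd5 and Mt-nd6 had the highest and lowest right ventricular log2 fold change of these transcripts, -0.07 and -0.55, so this choice favours a separation. How many other ratios separate the groups was not counted.

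**Figure D4:**
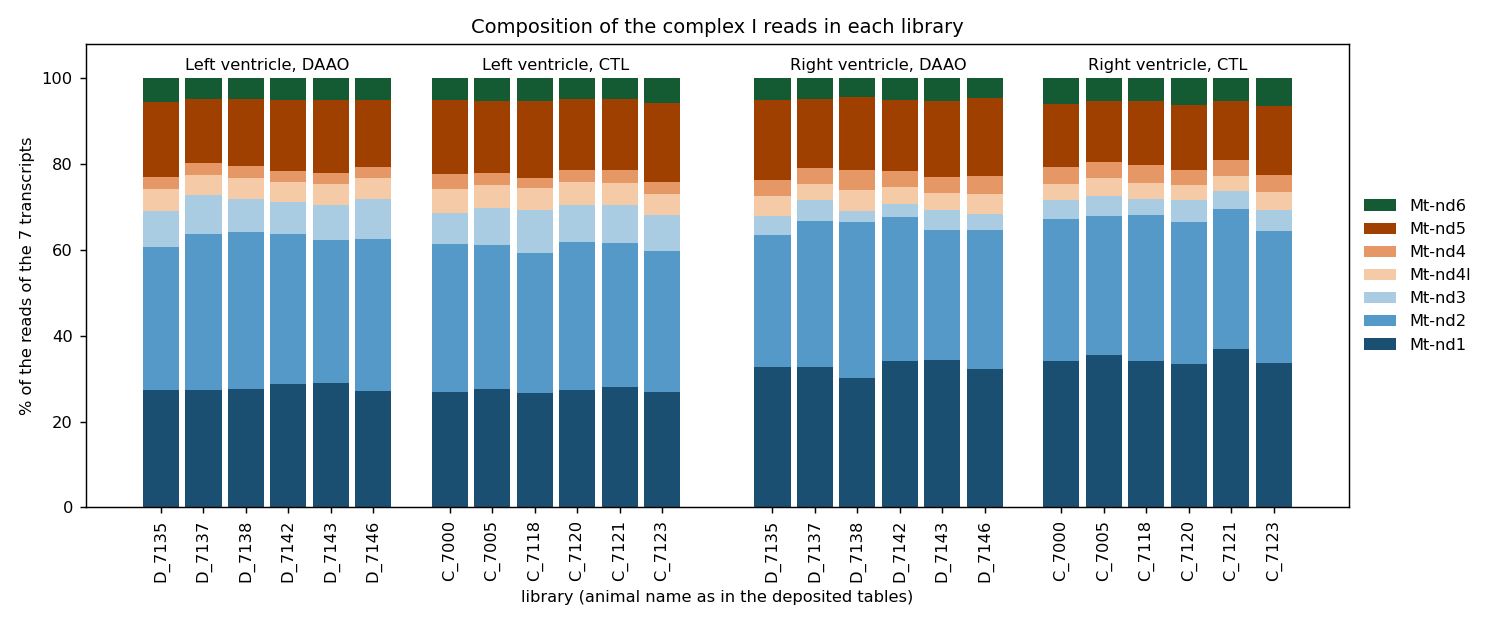
Make-up of the reads of the 7 transcripts in each of the 24 libraries, in % of their sum (stacked bars from 0 to 100), by ventricle and group, with the library names of the deposited tables. Mt-nd1 and Mt-nd2 make up most of each bar, Mt-nd3 is thinner in every right ventricular library, and Mt-nd5 is wider in right ventricular DAAO than CTL libraries (17.4% against 14.8%).

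The mix was also unlike between the 2 ventricles, in both groups. Chamber and any difference in library preparation between the ventricles cannot be told apart, and these values are a description without a test. Mt-nd3 made up 7.20% to 10.03% of the reads of the 7 in left and 2.68% to 5.17% in right ventricles, higher in the left sample of all 12 animals. Mt-nd1 made up 26.6% to 29.1% in left and 30.2% to 36.8% in right ventricles, and Mt-nd4 2.46% to 3.31% in left and 3.57% to 4.74% in right ventricles, both lower in the left sample of all 12 animals. These 3 ranges did not overlap between the ventricles, whereas those of the other 4 transcripts did. How many of all genes differ as clearly between the ventricles was not counted, so this does not set the transcripts apart from other genes.

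Mt-nd4l and Mt-nd4, although they share an RNA, did not keep 1 ratio of reads. Mt-nd4l had 1.70 to 2.02 reads per read of Mt-nd4 in left ventricles and 0.944 to 1.20 in right ventricles. The ratio was higher on the left in 12 of 12 animals, and in the left ventricle it averaged 1.85 in both groups, with an SD of 0.05 in DAAO and 0.13 in CTL hearts. Right ventricles averaged 1.07 ± 0.08 in DAAO and 0.977 ± 0.044 in CTL hearts (SD, n = 6 each). Among right ventricular libraries DAAO animal D_7138 stood apart in its mix, with the highest ratio of Mt-nd2 to Mt-nd1 reads, 1.20, and the lowest ratio of Mt-nd3 to Mt-nd2 reads, 0.0740.

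The genes whose share of reads followed the summed share of the 7 most closely over the 12 libraries of each table were sought among 10948 candidates, ranked by the lower of the 2 Pearson correlations. They were ENSRNOG00000031979 (r = 0.97 in the left and 0.82 in the right ventricle), ENSRNOG00000031766 (r = 0.88 and 0.77) and ENSRNOG00000033299 (r = 0.82 and 0.75), which the files do not name. All these shares were taken of the same library totals, so the values are a description. ENSRNOG00000033299 was called lower in DAAO left ventricles (log2 fold change -0.47, limma adjusted p = 0.0313) and not in the right (-0.12, adjusted p = 0.650). ENSRNOG00000031979 gave -0.38 in the left (limma adjusted p = 0.216) and -0.50 in the right ventricle (adjusted p = 0.186), and ENSRNOG00000031766 gave -0.52 (adjusted p = 0.122) and -0.47 (adjusted p = 0.195).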

How the data were processed

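RNA was measured in 24 rat heart libraries, 6 DAAO and 6 CTL per ventricle; total RNA from frozen hearts went into paired-end libraries, per the labels' protocols. The submitters' processing notes name STAR 2.7.0a, FastQC, DESeq2 1.26.0 and the build Rnor_6.0. Counter, annotation and strand setting: not given in the sources used here. The authors deposited a normalized signal, the gene counts of each library over that library's size factor, in 1 table per ventricle. All values (100%, tolerance 1e-06) were whole multiples of the smallest value of their library, so reads were recovered by division. No column was left unused (0).

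Deposited values were transformed to log2(value + 1), a scale that understates changes of low genes, and tested with limma 3.58.1 (R 4.3.3) with a mean-variance trend, two-sided, for genes with a mean of at least 10, adjusted over all of them. The difference between ventricles was an interaction over 24 libraries. Shares of recovered reads were compared with exact permutation tests. Alternatives were the pseudocount (0.5 or 5), the filter (none or 100), the scaling, robust variance, omitted animals, edgeR 4.0.16 and DESeq2 1.42.0 on recovered reads, and a block on the animal. The fits were tested on simulated data. The 7 genes, the lists and the tests were chosen with earlier results of these data known; the tests on the mix of the 7 transcripts were added after their values had been seen. All 7 genes are named, with the 3 genes most like them by a rule on candidates with a mean of at least 50.

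The animal pairing comes from the number shared by a left and a right label. Deviations from the group mean correlated between the ventricles of an animal with r from 0.0567 to 0.788, median 0.55, above 0.1 in 10 of 12 animals, and 9 of 12 matched their own number best. All pairs of libraries within a group differed beyond counting noise, with a chi-square over its degrees of freedom of at least 12.6. The reference, of another assembly, holds 47357 genes, 0 of them with an Ensembl number, so no identifier could be matched to it. Its gene names, sequences, lengths and positions are not used here. The lists of nuclear complex I subunits, assembly factors, other mitochondrially encoded subunits, mitochondrial RNA factors and cell type markers could therefore not be counted, and the labelled tissue was not checked against markers.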

Additional observations from a re-analysis of the deposited data

Results flagged for a closer look

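Single libraries stood far from the other 5 of their group in 3 of 72 sets of 6 values, where chance gives about 1 in 20, or 3.6. Mt-nd3 in the DAAO right ventricles reached 37147.9 normalized counts in animal D_7137, while the other 5 lay between 20900 and 26638. Among CTL right ventricles animal C_7118 had 45865.3 normalized counts of Mt-nd4, against 28416 to 34307 in the others, and 43298 of Mt-nd4l, against 27876 to 33193. Both values came from the same library, and Mt-nd4l and Mt-nd4 share an RNA.

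The difference between DAAO and CTL hearts in the ratio of Mt-nd6 reads to reads of the 6 heavy-strand transcripts differed between the 2 ventricles by a direct test. The left minus the right log2 ratio was higher by 0.23212 in DAAO than in CTL animals (exact permutation p = 0.0108, adjusted p = 0.0433), and the call depended on single animals as given above. The part of strand assignment and of any difference in library preparation between the ventricles in it was not tested.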

How the results depend on the processing

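In the left ventricle 2 of the 7 transcripts passed. With the share of all genes called lower in the same fit in parentheses, the number was 0 with no filter on low values (10.9%), 1 with equal totals (11.6%), 0 with equal totals outside the 7 (11.9%), 5 without CTL animals C_7000 and C_7005 (23.5%), 4 with DESeq2 (21.2%), and 0 to 4 when 1 animal was left out (16.8% to 22.8%). In the right ventricle 2 passed, with 0 under no filter (7.63%), 1 with equal totals (6.92%) and 0 with equal totals outside the 7 (7.02%). Leaving out 1 animal kept the number at 2 there (10.5% to 16.7%). Without a filter more genes entered both the mean-variance trend and the adjustment. The cause of these moves was not tested. Over all genes the difference between ventricles was called for 391 genes, for 236 without both CTL animals, for 85 to 616 when 1 animal was left out, and for 1072 with the animal as a replicate block; the paired fit, run for this difference alone, called 0 of the 7 transcripts, as did the fit without it. Signs turned for right ventricular Mt-nd4l (0.0936 with equal totals, 0.0906 outside the 7) and Mt-nd5 (0.173 and 0.170, and -0.125 to 0.00515 over single omissions), and, in the left minus right effect, for Mt-nd2 (-0.0344 and -0.0388, -0.0437 without both CTL animals, -0.0376 to 0.0918 over single omissions) and Mt-nd3 (-0.00809 without both CTL animals). Over single omissions the log2 difference in share ran from -0.109 to 0.00913 for the 7 and from -0.0973 to 0.0244 for the heavy-strand 6 in the right ventricle, and the strand ratio from -0.0502 to 0.00626 in the left; left minus right it ran from 0.189 to 0.267 and was 0.239 without both CTL animals (exact permutation adjusted p = 0.0952). In the mix, omissions gave -0.509 to 0.0576 percentage points for Mt-nd3 and -0.175 to 0.0221 for Mt-nd6 in the left, and -0.454 to 0.736 for Mt-nd2 and -0.0549 to 0.166 for Mt-nd4 in the right ventricle. The remaining comparisons kept their direction.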
